A study of Mus musculus with 6 samples.

Results

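The miR-17 and miR-18 seed families were followed in exosomes of mouse hippocampal cells through the 8 rows of the count table that carry the names Mir17, Mir18, Mir20a, Mir93, Mir106b, Mir106a, Mir20b and Mir18b, out of 1973 rows in all. The rule took rows by the GENCODE M21 name of their Ensembl identifier and used no level or test. The exosomes came from HN9.10e cells, an immortalized mouse embryonic hippocampal line, which is wild type and carries no further allele in the labels. In the control group (3 libraries) the cells were left without treatment, and in the ceramide group (3 libraries) they received 100 nM ceramide, a bioactive sphingolipid, for 48 h before the vesicles were collected from the medium. Total RNA was extracted from a fixed number of exosomes. A fixed mass of that RNA was made into small RNA libraries and sequenced. Counts were made for each miRNA hairpin gene, so a row holds both arms of its hairpin together. All libraries come from a single cell line, and the miRNA content of the cells themselves was not analysed here.

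miRNAs of these families are cut from hairpins that lie together in polycistronic clusters, of which the best known is the cluster of Mir17hg. The clusters are associated with proliferating progenitor cells, in the developing brain as elsewhere, where the miR-17 family is known to repress cell cycle inhibitors such as Cdkn1a. A miRNA recognizes its targets mainly through its seed, bases 2 to 8 from its 5′ end, so miRNAs with the same seed can act on overlapping sets of transcripts wherever their genes lie. The miR-18 seed differs from the miR-17 seed at a single base, and the 2 are counted as separate families.

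The mature 5p miRNAs of the 8 rows, all matched in the RefSeq miRNA table (GRCm38.p6), are shown to make the family relation visible, 5′ to 3′ with the seed in capitals. The first 6 carry the miR-17 seed and the last 2 the miR-18 seed.
miR-17-5p: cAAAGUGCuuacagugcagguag
miR-20a-5p: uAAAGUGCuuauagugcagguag
miR-93-5p: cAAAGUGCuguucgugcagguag
miR-106b-5p: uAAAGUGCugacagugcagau
miR-106a-5p: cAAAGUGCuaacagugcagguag
miR-20b-5p: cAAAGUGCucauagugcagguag
miR-18a-5p: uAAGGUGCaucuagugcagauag
miR-18b-5p: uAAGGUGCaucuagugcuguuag

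The likeness went beyond the seed that defines the families. Over the 21 bases that all 8 have, 12 positions held the same base in every sequence, 6 of them within the seed and 6 after it. The letters GUGCAG stood at bases 14 to 19 in 7 of the 8, all but miR-18b-5p, while 17 of the 1679 mature miRNAs of the RefSeq table (1.01%) held them on the strand as written. The 17 include these 7 and hold the letters at any position, and the letters were picked from the sequences shown, so the share is a description only. Counted from the 5′ end and with the base of miR-17-5p first, miR-106a-5p differed by U10A alone, miR-20a-5p by C1U and C12U, and miR-20b-5p by U10C and C12U. miR-106b-5p, 21 bases long against 23 for the others, differed by C1U, U10G and G20A, and miR-93-5p by U10G, A11U, C12U and A13C. miR-18b-5p differed from miR-18a-5p by A18U and A20U.

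The hairpin of Mir17 is shown, with its 5p and then its 3p arm in capitals, because its row counts reads of either arm and the table does not tell them apart.
Mir17 hairpin: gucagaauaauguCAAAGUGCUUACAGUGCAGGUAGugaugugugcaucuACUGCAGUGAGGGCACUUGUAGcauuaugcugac
Although the sequences are alike, the rows were counted apart. The counts of each of the 8 rows differed by at least 12.8% in some library from those of any other row in the table, whereas the rows of Mir19b-1 and Mir19b-2, 2 hairpins of the same mature miRNA, differed by at most 0.365%. Reads that fit several of these genes could still have been split between them, since their handling was not given in the sources used here.

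The 8 hairpins lie in 3 clusters (GRCm38). On chromosome 14, plus strand, Mir17 (ENSMUSG00000065508, 115043671 to 115043754), Mir18 (ENSMUSG00000065403, 115043851 to 115043946) and Mir20a (ENSMUSG00000065442, 115044157 to 115044263) lie within an exon of Mir17hg, a lincRNA that serves as their host, with Mir19a, Mir19b-1 and Mir92-1 in a stretch of 836 bases. On chromosome 5, minus strand, Mir106b (ENSMUSG00000065514, 138165737 to 138165818) lies in an intron of Mcm7, a subunit of the replicative helicase, and Mir93 (ENSMUSG00000065527, 138165523 to 138165610) lies in the exon of a retained-intron transcript of the same gene, with Mir25 next to it. On chromosome X, minus strand, Mir106a (ENSMUSG00000065456, 52742503 to 52742567) partly overlaps an exon of Kis2, while Mir18b (ENSMUSG00000077111, 52742331 to 52742413) and Mir20b (ENSMUSG00000076041, 52742113 to 52742192) overlap no other annotated gene. Mir19b-2, Mir92-2 and Mir363 complete this cluster.

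The library totals lay between 800810 and 2760015 counts, and all 8 rows passed the filter on low counts, with 418 rows tested in all. Levels are given as CPM after TMM scaling, which puts the counts of all libraries on the same footing, and differences as log2 fold changes of ceramide over control. By their labels control replicate 1 and ceramide replicate 1 carry lane number 1, the other control libraries 4 and the other ceramide libraries 2. Outside the first pair lane and treatment therefore cannot be told apart. Both libraries of the first pair also carry sheet position 1 and the run is not given, so a run in common is not established for them either. Their shared lane number therefore does not set treatment apart from run. Libraries with the same replicate number deviated together from their group means, and a fit with the number as a block is therefore given where it changes a call. The summed level of 11 neuronal miRNA rows lay at 8881 to 10077 CPM in control and 6778 to 7344 CPM in ceramide libraries (3 of the 11 lower at an adjusted p of at most 0.05 and none higher). Most of that sum lay in Mir138-1 and Mir138-2, and the rows did not all move together: Mir137 was higher in every ceramide than in any control library. The Mir124a rows held nearly the same levels, as did Mir9-2 and Mir9-3, so the 11 are not separate cases. The share of all rows lower at that adjusted p alone is not at hand, so the count of 3 cannot be set against it. The summed level of 6 blood and serum miRNA rows lay at 389 to 424 and 363 to 413 CPM (none past that adjusted p). The part of both lists in the results was not tested. More of a miRNA per vesicle and more vesicles that carry it cannot be told apart in such libraries.

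The family was dominated by Mir93, in control exosomes the 5th most abundant row of the whole table. The order of the control means was Mir93 with 49615 ± 2991 CPM, Mir20a with 8187 ± 1159, Mir106b with 1981 ± 106, Mir18 with 1300 ± 509, Mir17 with 1061 ± 156, Mir20b with 208 ± 15.3, Mir106a with 30.4 ± 3.36 and Mir18b with 9.40 ± 1.5 CPM (SD, n = 3 each). Mir106b and Mir18 overlapped in their libraries, as did Mir18 and Mir17, and every other pair of neighbours in this order stood apart in both groups. Per base of hairpin the order of these control levels was the same. The 3 rows of the chromosome X cluster were the 3 least abundant, and Mir17, which gives the family its name, held the fifth place.

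**Figure D1:**
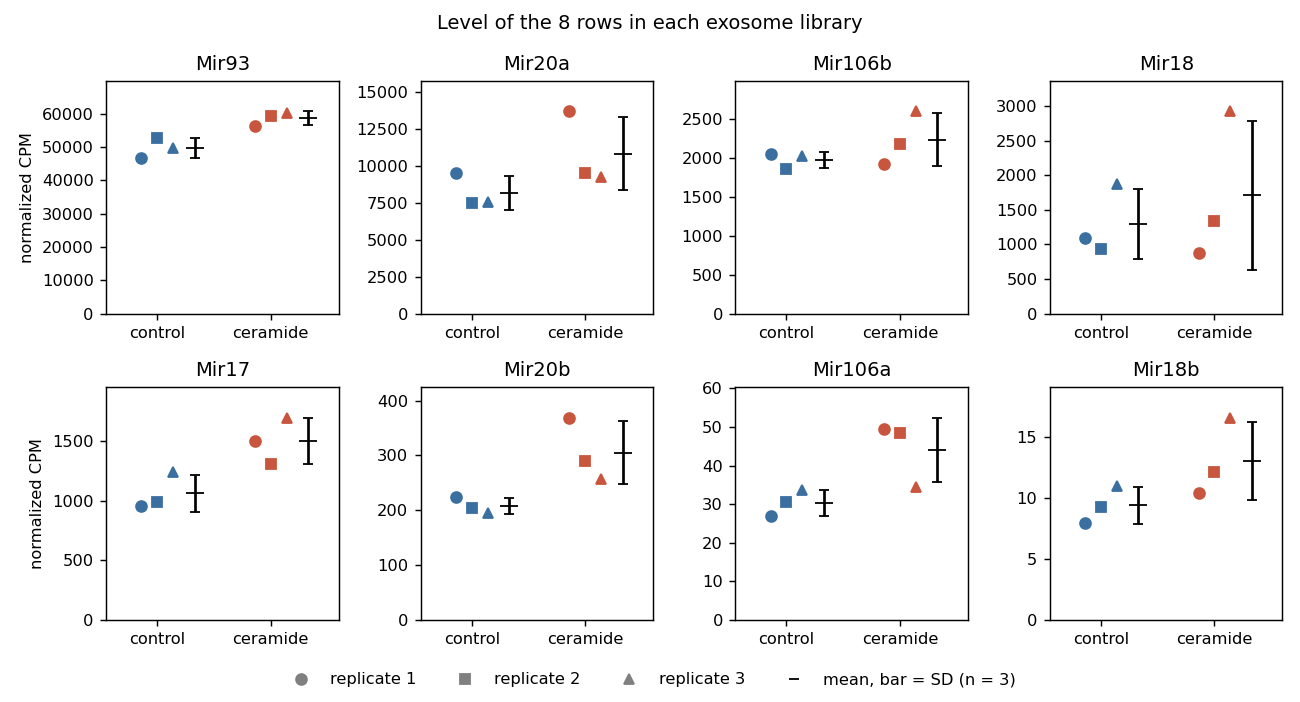
Normalized CPM (linear axis from 0) of each of the 8 rows in the 3 control (blue) and 3 ceramide (red) libraries, with the replicate number as the symbol and the mean ± SD (n = 3) in black. The ceramide libraries lie above all control libraries for Mir93, Mir17, Mir20b and Mir106a, and the groups overlap for Mir20a, Mir106b, Mir18 and Mir18b.

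All 8 rows had a higher fitted level in ceramide than in control exosomes, by log2 fold changes of 0.18 to 0.55. None passed both thresholds of the study, which ask for an adjusted p of 0.05 or less and a log2 fold change of 0.6 or more in size, in the quasi-likelihood test of edgeR, adjusted by Benjamini-Hochberg, nor did any with DESeq2 or limma-voom, while 4 of the 8 were higher with an unadjusted p under 0.05, against 14.6% of all rows in that direction and 153 of 418 rows in either. Of all 418 rows tested, 3.11% were called higher at both thresholds and 8.37% lower. With the adjusted p alone, 1 of the 8 rows (Mir20b) was higher, against 7.18% of all rows. With the replicate number as a block, 4 of the 8 (Mir17, Mir20a, Mir93 and Mir20b) passed the adjusted p as higher, against 20.3% of all rows, and still none passed both thresholds, against 9.09% of all rows. In 4 of the 8 rows (Mir17, Mir93, Mir106a and Mir20b) every ceramide library exceeded every control library, as in 14.1% of all rows. The median log2 fold change of the 8 rows was 0.45, and 0.43 with the block, beside -0.0077 over all rows tested, of which 206 of 418 were higher.

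Mir93 and Mir106b are co-transcribed with Mcm7. Mir93 stood at 46571, 52549 and 49725 CPM in control replicates 1, 2 and 3 and at 56219, 59286 and 60184 CPM in ceramide replicates 1, 2 and 3. All ceramide libraries lay above all control libraries, and the spread within groups was narrow: the pooled SD of its log2 level was 0.072, against a median of 0.194 over all rows. The log2 fold change was 0.24 (SE 0.069, 95% interval 0.075 to 0.40), with an adjusted p of 0.0532 (edgeR quasi-likelihood, Benjamini-Hochberg). With the replicate block the fold change stayed at 0.24 and the adjusted p was 0.0031, so Mir93 rose by a small amount in that fit. Without the block the adjusted p was 0.234 with DESeq2 and 0.0494 with limma-voom. In edgeR it was 0.034 with the size factors of DESeq2, 0.064 with upper-quartile factors, 0.113 with library size alone and 0.39 with no filter on low counts. Because of its abundance this row held 75.3% to 82.1% of the counts of the 8 rows in every library.

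Mir106b, next to Mir93 in the same gene, stood at 2056, 1860 and 2027 CPM in the control and 1928, 2180 and 2603 CPM in the ceramide libraries. Ceramide replicate 1 lay among the controls and ceramide replicate 3 above all of them, so the groups overlapped. Its log2 fold change of 0.18 (SE 0.12, 95% interval -0.12 to 0.47) had an adjusted p of 0.327 (edgeR quasi-likelihood, Benjamini-Hochberg), and 0.207 with the replicate block. Its count was 3.43% to 4.41% of that of Mir93, with overlapping groups.

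Of the rows in Mir17hg, Mir20a was the most abundant. It stood at 9523, 7464 and 7574 CPM in control and 13696, 9523 and 9275 CPM in ceramide replicates 1, 2 and 3. Both libraries numbered 1 were the highest of their group, and control replicate 1 reached the level of ceramide replicates 2 and 3, so the groups overlapped. The log2 fold change was 0.40 (SE 0.18, 95% interval -0.015 to 0.82), with an adjusted p of 0.146 (edgeR quasi-likelihood, Benjamini-Hochberg). With the replicate block it was 0.39 with an adjusted p of 0.0043, and Mir20a passed as higher. Without ceramide replicate 1 and without the block it was 0.18.

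Mir17 stood at 954, 988 and 1240 CPM in the control libraries and 1502, 1305 and 1696 CPM in the ceramide libraries. The groups did not overlap, though the highest control and the lowest ceramide library lay close together. The log2 fold change was 0.50 (SE 0.14, 95% interval 0.16 to 0.84), with an adjusted p of 0.0525 (edgeR quasi-likelihood, Benjamini-Hochberg), and of 0.0049 with the replicate block. Without the block it missed the adjusted p in edgeR under TMM. It passed with DESeq2 (0.0101), limma-voom (0.0494), the size factors of DESeq2 in edgeR (0.026) and upper-quartile factors (0.022). In edgeR it also missed with library size alone (0.097) and with no filter on low counts (0.12). Of the fits that left out a library, only that without control replicate 3 passed (0.044).

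Mir18 lies between Mir17 and Mir19a on the same transcript. It stood at 1089, 931 and 1880 CPM in control and 874, 1333 and 2923 CPM in ceramide replicates 1, 2 and 3. The libraries numbered 3 were the highest of both groups, and ceramide replicate 1 was the lowest of all 6. The pooled SD of its log2 level, 0.729, was the 27th largest of the 418 rows. Its log2 fold change of 0.40 (SE 0.46, 95% interval -0.70 to 1.5) had an adjusted p of 0.548 (edgeR quasi-likelihood, Benjamini-Hochberg). It was -0.23 without ceramide replicate 3, so that its direction rested on this library.

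On chromosome X, Mir20b stood at 225, 204 and 195 CPM in the control and 369, 289 and 256 CPM in the ceramide libraries. The groups did not overlap, and the libraries numbered 1 were the highest of both groups, as for Mir20a. The log2 fold change was 0.55 (SE 0.16, 95% interval 0.18 to 0.91), with an adjusted p of 0.0496 (edgeR quasi-likelihood, Benjamini-Hochberg) and of 0.0062 with the replicate block. Without the block this narrow call was lost in 5 of the 6 fits that left out a library, and was kept without ceramide replicate 3.

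Mir106a, the nearest relative of miR-17-5p in sequence, held 363 counts in all. It stood at 26.9, 30.6 and 33.7 CPM in the control and 49.4, 48.5 and 34.5 CPM in the ceramide libraries. The groups did not overlap, but ceramide replicate 3 lay just above the highest control library. Its log2 fold change of 0.51 (SE 0.19, 95% interval 0.061 to 0.97) had an adjusted p of 0.103 (edgeR quasi-likelihood, Benjamini-Hochberg), and 0.0676 with the block.

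Mir18b, the other row with the miR-18 seed, held 115 counts in all. It stood at 7.98, 9.24 and 11 CPM in the control and 10.4, 12.1 and 16.6 CPM in the ceramide libraries, which overlapped. Its 8 counts in control replicate 1 alone leave a 95% exact Poisson interval of 3.45 to 15.8 counts, for counting error only. The log2 fold change was 0.50 (SE 0.25, 95% interval -0.084 to 1.09), with an adjusted p of 0.192 (edgeR quasi-likelihood, Benjamini-Hochberg).

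Within replicate numbers, the ceramide library was higher than its control in every pair for 6 of the 8 rows. No share over all rows is at hand for this count, so it is no separate result about the 8. The log2 ratios of replicates 1, 2 and 3 were 0.27, 0.17 and 0.28 for Mir93, 0.52, 0.35 and 0.29 for Mir20a, and 0.65, 0.40 and 0.45 for Mir17. They were 0.72, 0.50 and 0.40 for Mir20b, 0.87, 0.67 and 0.035 for Mir106a, and 0.38, 0.39 and 0.60 for Mir18b. The exceptions were Mir106b (-0.092, 0.23 and 0.36) and Mir18 (-0.32, 0.52 and 0.64), both lower in ceramide in the first pair. That pair is the only one with a lane number in common, though its labels do not establish a common run. There 6 of the 8 rows were higher, without a replicate and again with no share over all rows at hand.

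**Figure D2:**
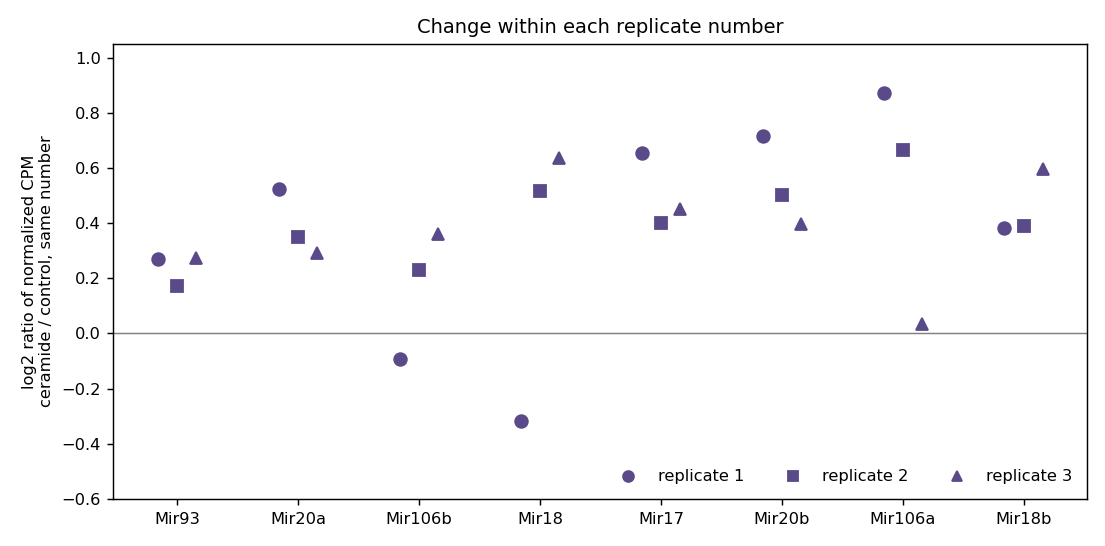
Log2 ratio of normalized CPM, ceramide over control, within each replicate number (symbols) for the 8 rows, ordered by control level. All values are above 0 except Mir106b (-0.092) and Mir18 (-0.32) in replicate 1, the pair with the same lane number.

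As a share of all counts, the 8 rows together made up 6.23%, 6.46% and 6.52% of the control libraries and 7.17%, 7.08% and 7.69% of the ceramide libraries. The means were 6.41% ± 0.155 and 7.31% ± 0.330 (SD, n = 3 each), a difference of 0.908 percentage points, and the groups did not overlap. Most of it lay in Mir93 (5.09% ± 0.262 and 5.70% ± 0.305). The 2 rows with the miR-18 seed made up 0.135% ± 0.054 and 0.169% ± 0.110, a difference within their spread. The makeup of the family overlapped between groups, and Mir20a for example held 11.7% to 15.8% of the family's counts in control and 12.0% to 18.3% in ceramide libraries.

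Of the 7 other hairpins in the same clusters, 6 lay in the opposite direction. In the same edgeR test with its Benjamini-Hochberg adjusted p, 5 of the 7 were called lower at both thresholds, against 8.37% of all rows tested. Those were Mir19a, Mir19b-1, Mir19b-2, Mir92-2 and Mir25, and their log2 fold changes ran from -1.38 to -0.62. The rows of Mir19b-1 and Mir19b-2 held nearly the same counts and are not separate cases. With DESeq2 Mir25 stood at -0.5997, just short of the fold change threshold. Mir92-1 stood at -0.52 (adjusted p = 0.109 from the same edgeR test, and 0.0119 with the replicate block, where it was -0.55) and Mir363 at 0.37 (adjusted p = 0.410). In 6 of these 7 rows, and in none of the 8 seed family rows, all ceramide libraries were under the lowest control library, as in 25.1% of all rows tested. Without Mir19b-2, which repeats Mir19b-1, they made up 3.90% ± 0.094 of control and 2.42% ± 0.168 of ceramide counts (SD, n = 3 each).

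**Figure D3:**
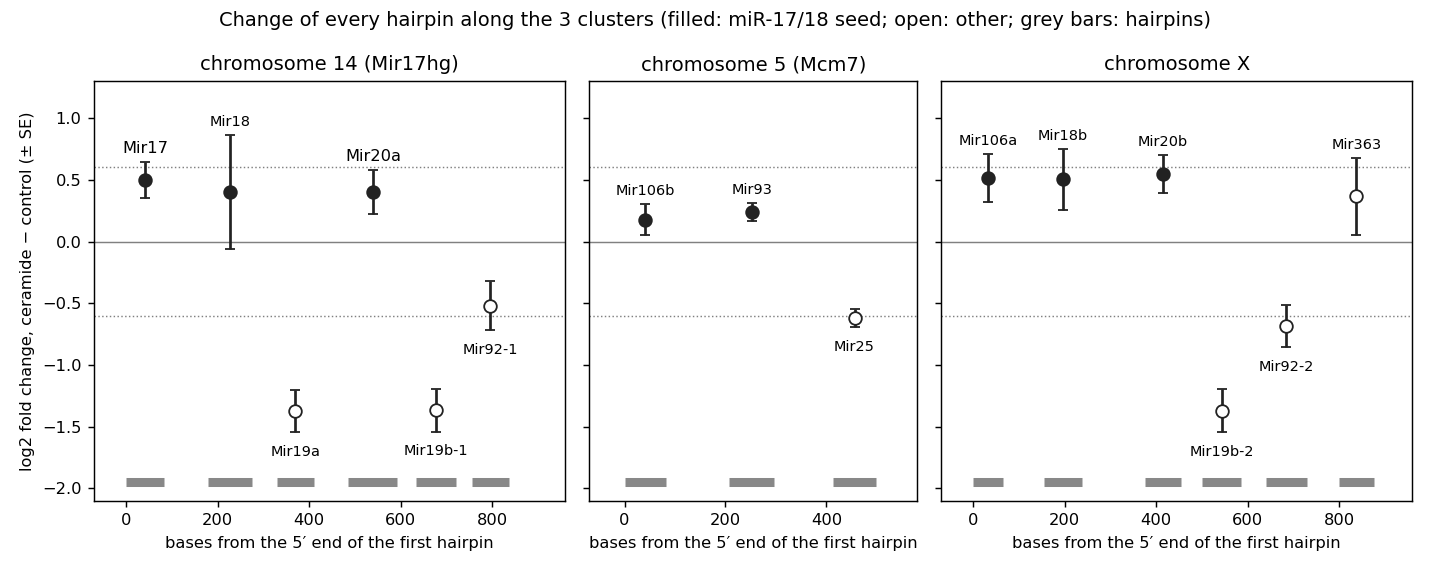
Log2 fold change (ceramide over control, ± SE) of the 15 hairpins against their distance in bases from the first hairpin of each cluster, along the direction of transcription (grey bars show the hairpins, dotted lines the threshold of 0.6). The 8 rows with a miR-17 or miR-18 seed (filled) lie between 0.18 and 0.55 and lie among other hairpins (open), of which 6 lie below 0 and Mir363 at 0.37.

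Ratios of 2 rows within a library do not depend on the scaling between libraries, and they set a member against another hairpin of its cluster, except that the rows of Mir19b-1 and Mir19b-2 held nearly the same counts and cannot be assigned to either cluster. The count of Mir17 was 0.980, 1.11 and 1.45 times that of Mir19b-1 in the control and 3.31, 4.19 and 5.69 times in the ceramide libraries. The mean log2 ratio was higher by 1.88, or 3.68-fold. Most of this lay in Mir19b-1, which the study had listed as lower: the fitted log2 fold changes were -1.37 for Mir19b-1 and 0.50 for Mir17. The ceramide libraries all exceeded the controls (3 of 3 pairs, p = 0.1 in a two-sided exact permutation test, which cannot go lower with 3 against 3 libraries, and 0.1 after adjustment over the 2 ratios tested).

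The second tested ratio set Mir93 against Mir25 in Mcm7. Mir93 had 1.86, 2.09 and 2.11 times the count of Mir25 in the control and 3.38, 3.62 and 4.03 times in the ceramide libraries. The mean log2 ratio differed by 0.86, or 1.82-fold, higher in 3 of 3 pairs (exact permutation test, two-sided, p = 0.1, and 0.1 after adjustment). Here too most of the difference lay in the other hairpin, with fitted log2 fold changes of -0.62 for Mir25 and 0.24 for Mir93. Neither test could reach 0.05 in this design. Mir19b-1 and Mir25 were themselves lower in every ceramide library, so neither ratio is a separate result about the members.

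Against Mir19a, whose row stood apart from any other, the count of Mir17 was 1.98, 2.04 and 2.42 times in the control and 6.15, 7.52 and 10.7 times in the ceramide libraries.

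Over all 20 ratios of a member to another hairpin of its cluster, given without a test, the ceramide libraries exceeded every control library in 14 and the groups overlapped in 6. The count is no separate result about the members. Of the 7 other hairpins, 6 were themselves lower in every ceramide library, the ratios share rows, and no share over ratios of other rows is at hand. The 6 were the ratios of Mir18 to Mir19a, Mir19b-1 and Mir92-1, and those of Mir106a, Mir20b and Mir18b to Mir363, the hairpin that was not lower in ceramide. Mir18, for example, had 2.25, 1.92 and 3.68 times the count of Mir19a in the control and 3.58, 7.69 and 18.4 times in the ceramide libraries. Mir20b had 17.3, 23.9 and 15.6 times the count of Mir363 in the control and 47.3, 19.6 and 14.3 times in the ceramide libraries, with ceramide replicates 2 and 3 among the controls.

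In ratios without overlap, Mir20b had 0.230, 0.230 and 0.227 times the count of Mir19b-2 in the control and 0.816, 0.933 and 0.862 times in the ceramide libraries. The count of Mir20a was 19.7, 15.4 and 14.8 times that of Mir19a in control and 56.1, 54.9 and 58.3 times in ceramide libraries. The groups did not overlap in either ratio. Mir106b, whose own level overlapped between groups, had 0.0821, 0.0741 and 0.0859 times the count of Mir25 in control and 0.116, 0.133 and 0.174 times in ceramide libraries, without overlap.

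Between members of the family the ratios overlapped between groups. Mir17 had 0.10, 0.132 and 0.164 times the count of Mir20a in control and 0.110, 0.137 and 0.183 times in ceramide libraries 1, 2 and 3, so that libraries of the same number lay closer than libraries of the same group. Mir20b had 8.33, 6.67 and 5.78 times the count of Mir106a in the control and 7.47, 5.97 and 7.43 times in the ceramide libraries. The ratio of Mir18 to Mir17 ran from 0.942 to 1.52 in control and from 0.582 to 1.72 in ceramide libraries.

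**Figure D4:**
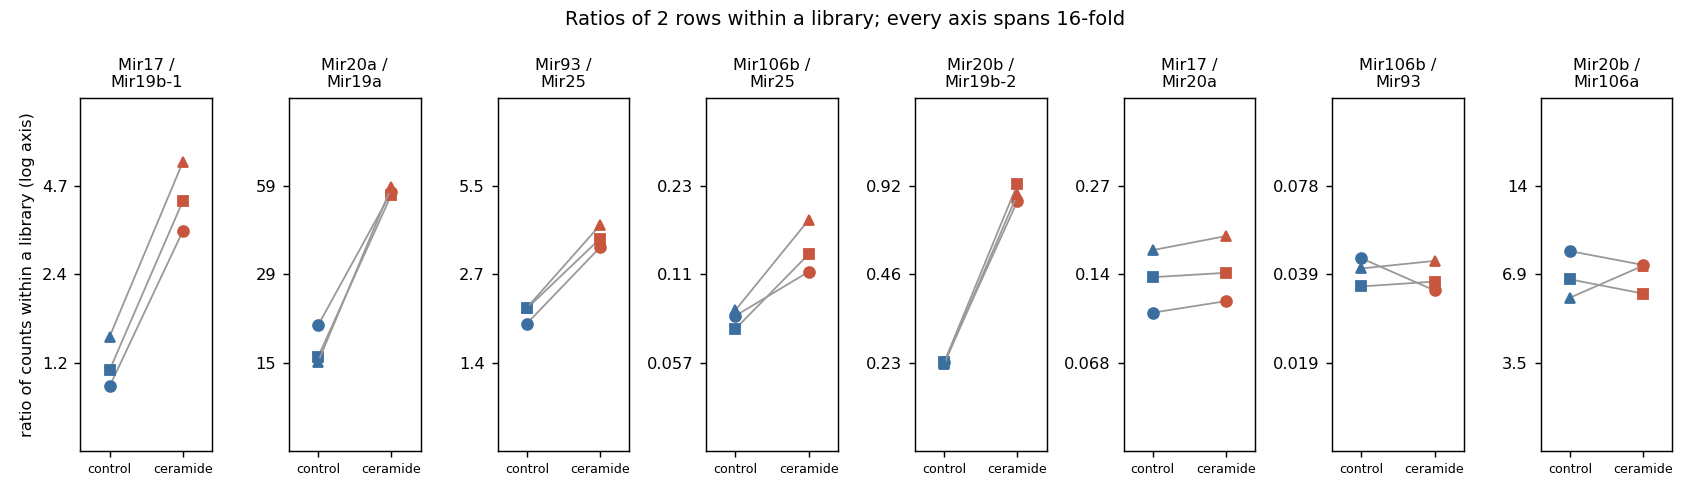
Ratio of the counts of 2 rows within each library (log axis, each spanning 16-fold), with the libraries of a replicate number (symbols as in the other plots) joined by a line. Of the 20 ratios to a hairpin outside the family, 5 of the 14 without overlap are drawn, and they are higher in every ceramide library, while the ratios between members (Mir17 to Mir20a, Mir106b to Mir93, Mir20b to Mir106a) overlap.

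Another hairpin of the RefSeq table has a mature miRNA with the miR-17 seed, and none other has the miR-18 seed. Mir6383 is shown to mark how far the likeness reaches, again with the seed in capitals.
miR-6383: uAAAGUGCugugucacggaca
It had 0 counts among 9591121 in the 6 libraries, which allows up to 0.313 CPM over all libraries together, for counting error only. The miR-290 and miR-302 rows, miRNAs of embryonic stem cells, some with a seed that shares 6 bases in a row with the miR-17 seed, were close to absent as well. Of the 11 of them in the table, 6 had any count, none more than 2 in a library, and Mir295 with 7 counts in all had the most.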

How the data were processed

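Per the labels and the paper, the authors prepared small RNA libraries from exosomal RNA with a kit that adds molecular identifiers (QIAseq), removed adapters with cutadapt 1.15, aligned reads to GRCm38 with STAR 2.5.3a and deposited raw counts per hairpin gene, unnormalized. The GENCODE release, strand, reads with several matches and use of the identifiers are not given in the sources used here, nor whether a read or a molecule was counted. Library totals were 800810 to 2760015 counts. The p-values measure the spread between libraries, which the paper calls biological replicates in triplicate without naming separate cultures.

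Of 1973 rows, 1894 matched GENCODE M21 names. The counts were fitted with edgeR 4.0.16 (R 4.3.3): TMM, filterByExpr (418 rows), quasi-likelihood test on group, Benjamini-Hochberg adjustment over all rows. SEs come from the F statistic. The script was tested on simulated data. Alternatives were DESeq2 1.42.0 size factors, upper-quartile factors, library size alone, DESeq2, limma-voom (limma 3.58.1), no filter, the replicate number as a block, lane as a term, and leaving out each library. Ratios had 0.5 counts added for the test. Same-numbered libraries had deviations from the group means that correlated at 0.591, 0.426 and 0.752, and others at -0.593 to 0.105, so the numbers were taken as pairing the libraries, from the data and not from the labels.

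Named rows are the 8 members, the 7 other hairpins of their clusters, rows sharing a seed, stem cell miRNAs and the 5 rows most like the members. The members and lists were chosen with earlier results of these data known. Sequences are RefSeq entries (GRCm38.p6).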

Additional observations from a re-analysis of the deposited data

How the results depend on the processing

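None of the 8 rows passed both thresholds with all libraries under TMM, while 1 did with the size factors of DESeq2 and 1 with upper-quartile factors (Mir20b in both), 1 and 1 when these were joined to the replicate block (combinations chosen after seeing the data), and 0 to 2 when a library was left out (1 without control replicate 3, 2 without ceramide replicate 3, 0 in the others). The number past the adjusted p alone, 1 with TMM, was 3 with the size factors of DESeq2, 2 with upper-quartile factors, 0 with library size alone, 2 with DESeq2, 3 with limma-voom, 0 with no filter and 4 with the replicate block. With the block it was 4 with library size alone, 5 with DESeq2 size factors and 5 with upper-quartile factors, and without a library it was 0 to 2 (0 without replicate 1 or 2 of either group). Of all rows tested, 7.18% passed the adjusted p as higher in the main fit and 20.3% with the replicate block under TMM. For the other fits no share over all rows is at hand, so a larger count there is no result about the 8 rows. The scalings moved the median of all rows from -0.0077 to 0.067 with DESeq2 size factors and -0.088 with library size alone. The median of the 8 rows was 0.34 to 0.54 without a library, 0.34 without ceramide replicate 3, and 0.36 with the block and library size alone. Mir18 reversed with lane as a term (-0.32) and ranged from -0.23 to 0.77 without a library, and Mir106b reversed with lane (-0.092). The other 6 rows were higher in all 17 alternatives. The fit with lane only repeats the log2 ratios of the first pair, since the other lane numbers each hold a single group. The share of counts was higher by 1.28 percentage points over TMM effective library sizes. Both tested ratios kept their direction in all 9 alternatives each, and with the replicate block their exact p was 0.25. The causes were not tested. Mir18b and Mir106a had the fewest counts, 115 and 363.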

Other observations

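Over the 6 libraries, the rows outside these clusters whose levels followed the mean standardized profile of the 8 rows most closely, among 198 rows of at least 100 CPM, were Mir183 (Pearson r 0.980), Gm25927 (0.954), Gm24111 (0.933), Mirlet7a-1 (0.920) and Gm24187 (0.910). The correlation is a description, and the points share the difference between the groups. Mir183, a miRNA known from sensory cells, was the closest. It stood at 1107, 1173 and 1270 CPM in the control and 1525, 1605 and 1652 CPM in the ceramide libraries, which did not overlap, and its log2 fold change was 0.43 (SE 0.089, adjusted p = 0.018, edgeR quasi-likelihood, Benjamini-Hochberg). Among the 8 rows, Mir17 (r 0.938) and Mir93 (0.834) lay closest to the mean profile of the other 7, and Mir18 (0.353) and Mir20a (0.394) farthest from it.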
